A study of Mus musculus with 8 samples.

Results

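The TNF superfamily is a set of cytokine ligands and the matching family of receptors, named after tumour necrosis factor. Members were chosen by gene name: every Tnfsf and Tnfrsf gene on the array, with Tnf, Lta, Ltb, Ltbr, Cd40, Cd40lg, Cd27, Cd70, Fas, Fasl and Ngfr, which carry older names. This gave 41 members among 36163 gene names, of which 16 are ligands and 25 are receptors, read by 52 probes. Tnfsf13, a further B cell survival ligand, is not analysed here.

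Whole-lung RNA was measured on single-colour Agilent arrays in C57BL/6 mice, with 1 array per mouse. The 4 wild-type mice and the 4 mice whose Ggps1 gene was knocked out in the lung only had all received lipopolysaccharide (LPS), a bacterial endotoxin that injures the lung, 12 h earlier. Ggps1 encodes geranylgeranyl diphosphate synthase, which supplies the lipid attached to many small GTPases, and the study asked how its loss alters the lung's response to LPS. There was no group without LPS, so the values below compare genotypes within the response and do not show the response itself. What drives the deletion and which lung cells carry it are not stated in the labels. Blood, immune and vessel cells are part of whole lung as well.

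Most ligands of the family are made as trimers in the cell membrane and can be cut free by proteases. They cluster their receptors, which recruit adaptor proteins and switch on NF-kappaB and kinase pathways or, through a death domain, caspases. In the lung after endotoxin, TNF is a well known early product of macrophages and monocytes, lymphotoxins and costimulatory ligands come mostly from lymphocytes, and several receptors sit on epithelium and endothelium. Decoy receptors bind ligand without passing the signal on.

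Levels are the log2 of the processed signal minus the same array's 75th percentile, so 0 means a signal at that percentile. Probes differ in brightness, so a level was compared only between samples of the same probe. A probe was tested if it was well above background on at least 3 of the 4 arrays of a group. Differences are knockout minus wild-type with limma's standard error (SE), and adjusted p-values are Benjamini-Hochberg values over all 24464 genes tested. A member counts as changed below an adjusted p of 0.05. Groups are called apart when all 4 knockout values lie on one side of all 4 wild-type values. 

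Between 61.46% and 65.2% of spots were well above background on each wild-type array, and between 58.0% and 61.49% on each knockout array. The 75th percentile of log2 signal was 9.34 to 9.56 on the wild-type arrays and 9.17 to 9.37 on the knockout arrays. The knockout arrays were thus mostly dimmer, and the part of this in the differences was not tested. All 8 arrays lay on 1 slide, the wild-type samples in one row and the knockout samples in the other, so slide position and genotype cannot be told apart. The lung label was checked against its markers: the alveolar type 2 genes Sftpc and Sftpd were far above the 75th percentile, Sftpc at 8.99 in wild-type and 9.08 in knockout. Ggps1 itself differed by -0.06 ± 0.068 (SE; limma, adjusted p = 0.613), which does not check the genotype, since the labels do not say which part of the gene was deleted. In whole-lung RNA, fewer cells of a type and less RNA per cell cannot be told apart.

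Of the 41 members, 35 passed the background filter, 12 ligands and 23 receptors. None of the 35 passed the test at an adjusted p of 0.05 (limma). Over all genes tested, 15 passed, 7 lower and 8 higher, which is 0.0613%. With each array centred on its median, 11 were lower and 6 higher. Among the members, 4 had an unadjusted p under 0.05 and the lower mean in the knockout (Ltb, Tnfrsf13b, Tnfrsf26 and Tnfsf14), 11.4%, and 0 had it with the higher mean, against 13.4% of all genes lower and 10.2% higher. Only Ltb had groups that were apart, with the knockout lower, where 9.21% of all genes were apart and lower and 6.1% were apart and higher. At an adjusted p of 0.1, Ltb alone passed among the members, against 7.43% of all genes. The shares of members past any of these thresholds were near or below those of all genes.

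The values leaned to one side without passing the test. The knockout mean was below the wild-type mean in 26 of 35 members, 74.3%, against 54.3% of all genes tested. The median difference was -0.24 over the members and -0.03 over all genes. The lean was seen on both sides: 9 of 12 ligands (median -0.39) and 17 of 23 receptors (median -0.18) had the lower mean in the knockout. Without Tnfsf18, whose knockout values were mostly below background, the counts were 25 of 34 members and 8 of 11 ligands. The members' median was -0.13 with normexp, -0.14 without knockout mouse 4 and -0.15 without wild-type mouse 4. The members share samples and partly share cells, so these counts describe the family and were not tested.

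**Figure D1:**
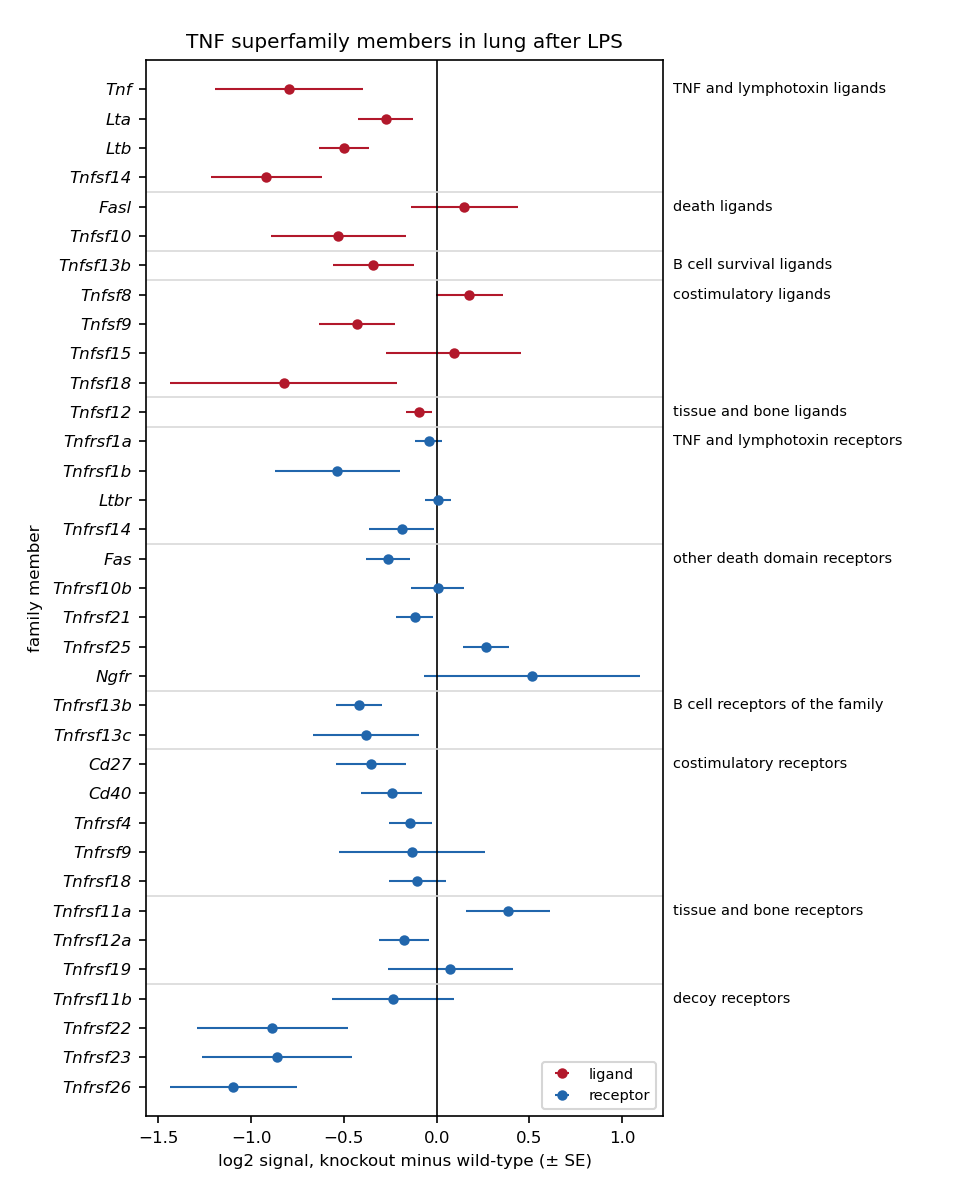
Difference in log2 signal, knockout minus wild-type, for the 35 members tested, ordered by role; points are limma estimates, bars are 1 SE either way, red marks ligands and blue receptors, and n = 4 mice per group. Most points lie left of 0, from -1.09 for Tnfrsf26 to 0.51 for Ngfr, and none passed the test at an adjusted p of 0.05; the Tnfsf18 point rests on knockout values mostly below background.

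The TNF and lymphotoxin ligands are neighbours in the genome. On mm9, the build of the array's files, the probes lie at chr17:35333097-35333156 for Ltb, chr17:35336795-35336854 for Tnf and chr17:35340275-35340334 for Lta. No annotation of that build was used, so exons and UTRs are not named. A second group of family ligands lies further along the same chromosome, with the probes of Tnfsf9 at chr17:57247062-57247121, Cd70 at chr17:57285465-57285524 and Tnfsf14 at chr17:57329192-57329251. The knockout mean was lower for all 4 of Tnf, Lta, Ltb and Tnfsf14, with a median difference of -0.65.

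The 250 bases before the transcription start of these 4 genes are shown. Ltb and Tnfsf14 are 2 of the 4 members with an unadjusted p under 0.05, and Tnf and Lta are neighbours of Ltb, both on the same side of it. The same stretch of Tnfrsf9, a costimulatory receptor described further on, is shown as the other tested member with a kappaB match. Another Tnfrsf9 promoter, at chr4:150919905-150920154, had no kappaB match and is not shown. Sequences are from RefSeq on GRCm38.p6, not the array's build, and run 5′ to 3′ on the gene's own strand. Capitals mark a match to the kappaB consensus, the binding letters of NF-kappaB, on either strand.
Ltb, chr17:35194257-35194506, plus strand: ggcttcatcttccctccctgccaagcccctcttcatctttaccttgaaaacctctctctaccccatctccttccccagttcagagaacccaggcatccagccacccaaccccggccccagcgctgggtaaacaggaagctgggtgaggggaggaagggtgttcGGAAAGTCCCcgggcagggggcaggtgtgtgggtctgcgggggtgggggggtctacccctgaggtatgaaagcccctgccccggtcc
Tnf, chr17:35202008-35202257, minus strand: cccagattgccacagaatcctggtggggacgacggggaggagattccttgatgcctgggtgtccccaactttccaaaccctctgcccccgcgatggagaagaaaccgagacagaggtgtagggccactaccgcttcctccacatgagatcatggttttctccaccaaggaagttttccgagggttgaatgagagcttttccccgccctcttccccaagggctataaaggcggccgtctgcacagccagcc
Lta, chr17:35205352-35205601, minus strand: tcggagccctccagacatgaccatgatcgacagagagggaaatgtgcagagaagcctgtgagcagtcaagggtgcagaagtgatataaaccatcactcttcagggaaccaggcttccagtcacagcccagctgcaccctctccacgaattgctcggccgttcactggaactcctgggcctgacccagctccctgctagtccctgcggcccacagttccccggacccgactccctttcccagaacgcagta
Tnfsf14, chr17:57194182-57194431, minus strand: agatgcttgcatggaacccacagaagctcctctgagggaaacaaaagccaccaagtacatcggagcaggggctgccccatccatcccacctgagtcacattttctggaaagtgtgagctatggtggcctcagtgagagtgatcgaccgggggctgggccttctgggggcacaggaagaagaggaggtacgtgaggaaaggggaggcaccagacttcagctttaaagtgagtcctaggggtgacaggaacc
Tnfrsf9, chr4:150927749-150927998, plus strand: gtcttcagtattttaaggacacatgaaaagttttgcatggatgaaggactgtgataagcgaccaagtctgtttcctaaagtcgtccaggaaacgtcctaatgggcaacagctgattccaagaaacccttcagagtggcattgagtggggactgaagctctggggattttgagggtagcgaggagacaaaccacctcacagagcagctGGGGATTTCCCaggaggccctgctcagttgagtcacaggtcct

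In Ltb the capitals lie 87 to 78 bases before the start. In Tnfrsf9 they join 2 overlapping matches, from 43 to 33 bases before it. No match to this consensus lies in the 250 bases shown for Tnf, Lta or Tnfsf14, which says only that these letters are not in this window. Tnf carries TATAAA at 29 to 24 bases and Tnfsf14 carries TGAGTCA, the letters of an AP-1 site, at 160 to 154 bases before the start. Promoters were matched for 31 of the 41 members, 35 promoters in all. The kappaB consensus was found in 3 of these 35 (8.57%), of Ltb, Tnfrsf8 and Tnfrsf9, against 3.90% of 32851 mouse promoters of the same length. TGACTCA or TGAGTCA was found in 5 (14.3%; Fas, Tnfrsf8, Tnfrsf9, Tnfsf13b and Tnfsf14) against 4.46%. TATAAA was found in 6 (17.1%) against 12.4%, and TGACGTCA, the cyclic AMP response element, in 0 against 1.55%. GAGGAA or CAGGAA, the core letters of an ETS site, was found in 19 (54.3%) against 42.9%. Both strands were searched, these are letter matches with no binding data behind them, and some matches overlap, such as those of the kappaB consensus in Tnfrsf9.

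Ltb encodes lymphotoxin beta, which anchors lymphotoxin alpha at the cell membrane. Its log2 level was 4.79, 4.56, 4.37 and 4.70 in wild-type mice 1 to 4 and 4.14, 4.14, 3.82 and 4.32 in knockout mice 1 to 4. The groups did not overlap, though the highest knockout sample came close to the lowest wild-type sample. The difference was -0.50 ± 0.13 (SE), 1.41-fold lower in the knockout (limma, unadjusted p = 0.00565, adjusted p = 0.092). Ltb stayed lower under every other processing setting and with any 1 mouse left out, with adjusted p from 0.0609 to 0.174.

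Tnfsf14 encodes LIGHT, which binds the lymphotoxin beta receptor and the herpesvirus entry mediator. Its level was 1.46, 2.08, 0.98 and 1.66 in wild-type mice and 0.65, 1.15, -0.04 and 0.76 in knockout mice. The groups overlapped by 1 sample on each side, wild-type mouse 3 lying below knockout mouse 2. The difference was -0.92 ± 0.30 (SE), 1.89-fold lower (limma, adjusted p = 0.128).

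Tnf itself, the founding cytokine of the family, was at 3.01, 4.20, 3.08 and 3.87 in wild-type mice and at 2.39, 3.75, 2.19 and 2.66 in knockout mice. Both groups were wide, and knockout mouse 2 lay above wild-type mice 1 and 3 while the other 3 knockout mice lay below every wild-type mouse. The difference was -0.79 ± 0.40 (SE), 1.73-fold lower, with an adjusted p of 0.267 (limma). It was -1.13 without knockout mouse 2 and -0.57 without wild-type mouse 2. The Tnf probe is spotted 10 times, and the 8 to 9 spots used per array had an SD of 0.012 to 0.0257 within an array, so the spread lay between samples and not between spots.

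Lta encodes lymphotoxin alpha, which binds the TNF receptors on its own and the lymphotoxin beta receptor together with Ltb. Its level was -2.46, -2.40, -2.58 and -2.29 in wild-type mice and -3.02, -2.31, -2.69 and -2.81 in knockout mice. The groups overlapped through knockout mouse 2, and the 3 other knockout values were the lowest of the 8. The difference was -0.27 ± 0.15 (SE; limma, adjusted p = 0.300), and it was -0.11 with normexp and -0.17 without knockout mouse 1.

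**Figure D2:**
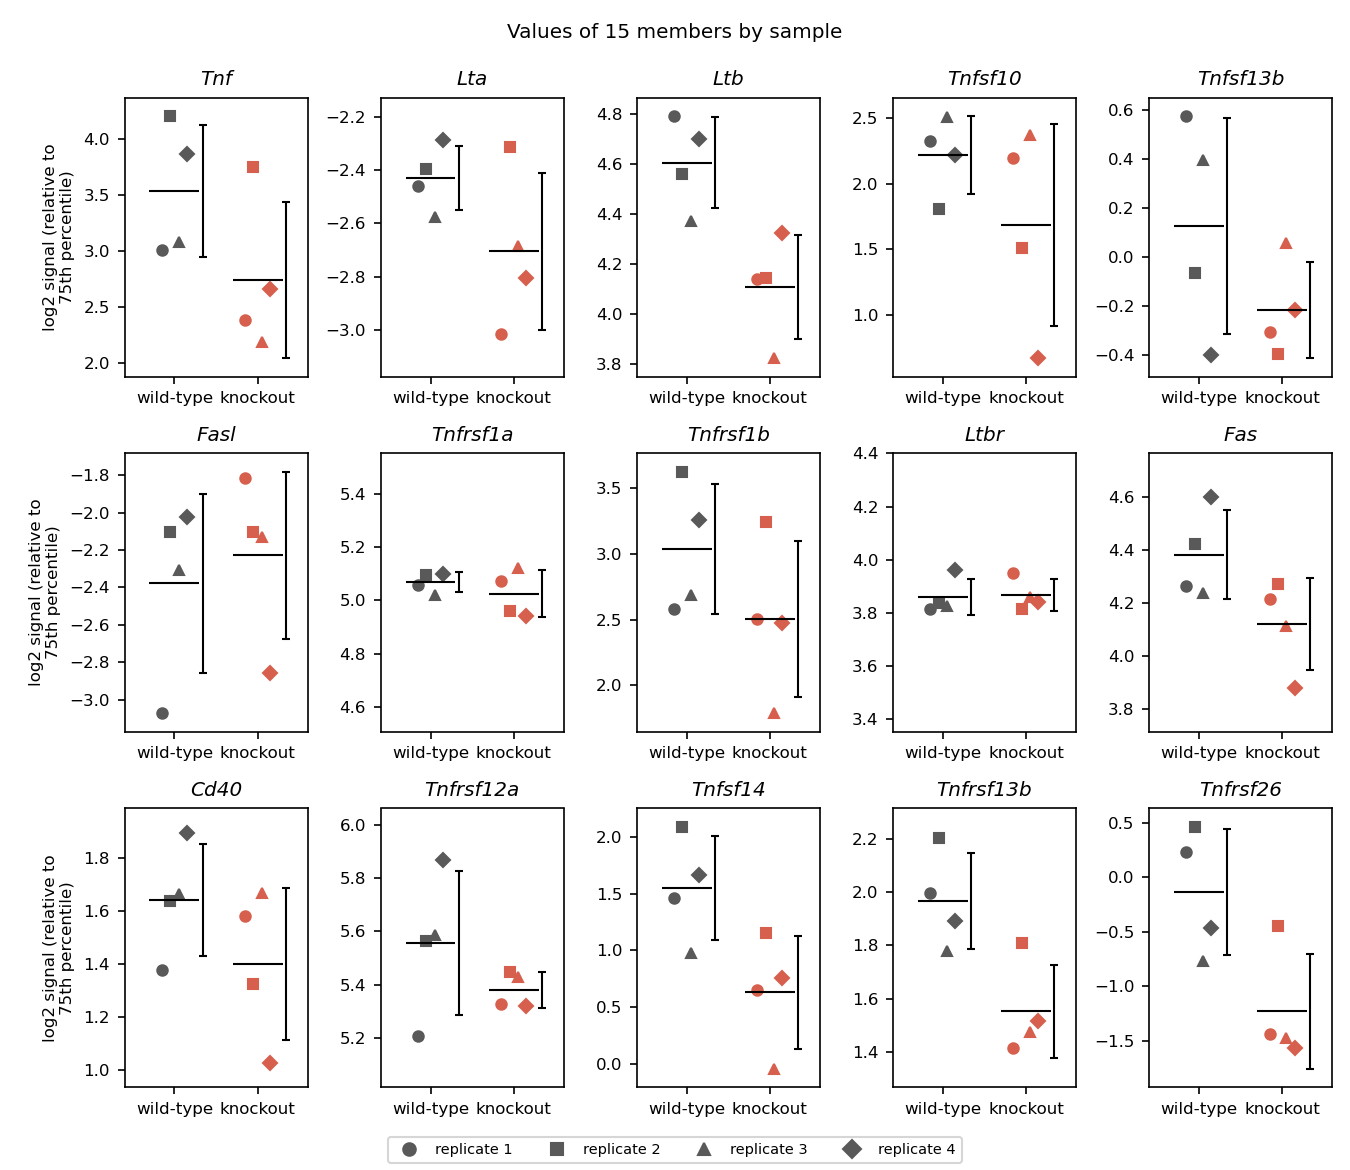
Log2 signal relative to the array's 75th percentile in each of 8 mice for 15 members, with wild-type in grey and knockout in red; the symbol gives the replicate number, the horizontal line the group mean and the bar 1 SD either way (n = 4), and each panel has its own axis range. Only in the Ltb panel do the groups not overlap, and in the Tnf, Tnfrsf1b, Tnfsf14, Tnfrsf13b and Tnfrsf26 panels the square, replicate 2, is the highest point of both groups.

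Of the death ligands, Tnfsf10 (TRAIL) was at 2.33, 1.81, 2.51 and 2.22 in wild-type mice and at 2.19, 1.51, 2.37 and 0.67 in knockout mice. The 2 groups overlapped, and knockout mouse 4 was far below the other 7 samples. The difference was -0.53 ± 0.36 (SE; limma, adjusted p = 0.397), and it was -0.19 without knockout mouse 4.

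Fasl, the ligand by which cytotoxic lymphocytes engage Fas, was at -3.07, -2.10, -2.31 and -2.02 in wild-type mice and at -1.81, -2.11, -2.13 and -2.86 in knockout mice. Each group held 1 low sample, and the difference of 0.15 ± 0.29 (SE; limma, adjusted p = 0.781) was within the spread of the samples.

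Tnfsf13b encodes BAFF, the survival factor of B cells. Its level was 0.57, -0.07, 0.40 and -0.40 in wild-type mice and -0.31, -0.40, 0.05 and -0.22 in knockout mice. Wild-type mice 1 and 3 were above all knockout mice, and wild-type mouse 4 was level with the lowest of them. The difference was -0.34 ± 0.22 (SE; limma, adjusted p = 0.365), and it was -0.19 without wild-type mouse 1 and -0.52 without wild-type mouse 4.

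Of the 7 costimulatory ligands, 4 were tested. Tnfsf9 (4-1BBL) differed by -0.43 ± 0.21, while Tnfsf8 (CD30L) differed by 0.18 ± 0.18 and Tnfsf15 (TL1A) by 0.09 ± 0.36 (SE). The Tnfsf18 (GITRL) probe was well above background on 3 wild-type arrays and 1 knockout array. Its values ran from -6.01 to -4.75 in wild-type and from -7.11 to -4.35 in knockout mice, and most knockout values were below background, so its difference is not read further. Tnfsf12 (TWEAK), the ligand of Fn14, differed by -0.09 ± 0.07 (SE).

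The other 4 ligands and 2 receptors did not pass the background filter. Cd40lg, Tnfsf4 (OX40L) and Tnfrsf8 (CD30) were well above background on none of the 8 arrays, and Cd70, Tnfsf11 (RANKL) and Tnfrsf17 (BCMA) on 1 array each. For Cd40lg the values below background were -7.35, -7.35, -7.49 and -7.25 in wild-type and -6.82, -6.97, -6.75 and -7.16 in knockout mice, and for Tnfsf4 they lay between -7.68 and -7.37 in wild-type and between -7.22 and -6.89 in knockout mice. The lowest signal that counted as well above background was -5.52 to -5.30 on the wild-type arrays and -4.94 to -4.66 on the knockout arrays, higher in the knockout like these values. The probes give only an upper bound on the ligands, so no difference is given.

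Among the receptors of TNF and the lymphotoxins, the broadly expressed ones were at nearly the same level in both groups. Tnfrsf1a encodes TNFR1, the broadly expressed death domain receptor of TNF, and its level was 5.06, 5.10, 5.02 and 5.10 in wild-type mice and 5.07, 4.96, 5.12 and 4.94 in knockout mice. All 8 values lay within a narrow band, and the difference was -0.04 ± 0.07 (SE; limma, adjusted p = 0.736). Its sign turned under quantile normalization, to 0.014. A second Tnfrsf1a probe gave -0.10 ± 0.08 (SE).

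Ltbr, the lymphotoxin beta receptor of stromal, epithelial and myeloid cells, was at 3.82, 3.84, 3.83 and 3.96 in wild-type mice and at 3.95, 3.81, 3.86 and 3.84 in knockout mice. The highest sample of each group stood a little above 3 close ones, and the difference was 0.01 ± 0.07 (SE; limma, adjusted p = 0.964), with a sign that turned under median centring, to -0.05. Tnfrsf14, the herpesvirus entry mediator, differed by -0.19 ± 0.18 (SE).

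Tnfrsf1b encodes TNFR2, which is found mainly on leukocytes and endothelium. Its level was 2.58, 3.62, 2.69 and 3.25 in wild-type mice and 2.50, 3.24, 1.79 and 2.47 in knockout mice. As for Tnf, knockout mouse 2 lay among the wild-type values, and the other 3 knockout mice lay below all of them. The difference was -0.53 ± 0.34 (SE; limma, adjusted p = 0.363), and it was -0.78 without knockout mouse 2, -0.30 without knockout mouse 3 and -0.34 without wild-type mouse 2. The difference between the Tnfrsf1b and Tnfrsf1a differences was not tested.

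Of the other death domain receptors, 2 of 5 had the lower mean in the knockout. Fas, which triggers apoptosis through FADD and caspase 8, was at 4.26, 4.42, 4.24 and 4.60 in wild-type mice and at 4.22, 4.27, 4.11 and 3.88 in knockout mice. The groups overlapped through knockout mouse 2, which lay just above the 2 lowest wild-type samples, and the difference was -0.26 ± 0.12 (SE; limma, adjusted p = 0.230). Tnfrsf25 (DR3), the receptor of TL1A, differed by 0.26 ± 0.12 and Tnfrsf21 (DR6) by -0.12 ± 0.10, and Tnfrsf10b, the mouse TRAIL receptor, by 0.01 ± 0.14 (SE). Ngfr, the p75 neurotrophin receptor, had the widest values among the receptors that lay above background on all 8 arrays, from -3.00 to -1.18 in wild-type and from -2.72 to -0.70 in knockout mice, and differed by 0.51 ± 0.58 (SE), which ran from 0.19 to 0.86 with 1 mouse left out.

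The B cell receptors of the family bind BAFF and its relative APRIL. Tnfrsf13b (TACI) was at 1.996, 2.20, 1.78 and 1.89 in wild-type mice and at 1.41, 1.81, 1.47 and 1.51 in knockout mice. Only knockout mouse 2 reached the wild-type range, just above its lowest sample. The difference was -0.42 ± 0.12 (SE), 1.33-fold lower (limma, adjusted p = 0.109).

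The probes of these receptors did not all give the same size. The 2 other Tnfrsf13b probes gave -0.08 ± 0.11 and -0.29 ± 0.17 (SE), and the mean of the probes gave -0.26. Tnfrsf13c, the BAFF receptor, differed by -0.38 ± 0.28 on its brighter probe (SE), and by -0.14 without knockout mouse 4 and -0.22 with normexp. A dimmer Tnfrsf13c probe was well above background on 3 wild-type arrays and on 0 knockout arrays, so no difference is given for it.

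Markers of B cells leaned the same way as these receptors. Of 10 B cell markers, 8 passed the filter and 7 of those had the lower mean in the knockout, with a median difference of -0.65. Of the 8, 4 were lower at an unadjusted p under 0.05 (50%, against 13.4% of all genes) and 0 passed the adjusted threshold (limma). The summed signal of the 8, in multiples of the array's 75th percentile, was 9.11 to 12.97 in wild-type and 7.88 to 11.6 in knockout mice. The brightest, Cd79b, differed by -0.24 ± 0.15, and the next, Blnk, by 0.41 ± 0.26 (SE). The part of these cells in the receptor values was not tested.

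All 5 costimulatory receptors tested had the lower mean in the knockout, by a median of -0.14, and none passed the test. Cd40, which lets B cells, macrophages and dendritic cells receive T cell help, was at 1.38, 1.64, 1.66 and 1.89 in wild-type mice and at 1.58, 1.32, 1.67 and 1.03 in knockout mice. The groups overlapped widely, and the difference of -0.24 ± 0.16 (SE; limma, adjusted p = 0.395) was -0.12 without the low knockout mouse 4 and -0.16 without wild-type mouse 4. Cd27, carried by T, NK and memory B cells, differed by -0.35 ± 0.19 and its second probe by -0.16 ± 0.23 (SE), and the first was at -0.076 with normexp and at -0.22 without knockout mouse 4.

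The other 3, all of which are found on activated T cells, differed by -0.14 ± 0.12 for Tnfrsf4 (OX40), by -0.10 ± 0.15 for Tnfrsf18 (GITR) and by -0.13 ± 0.39 for Tnfrsf9 (4-1BB) (SE). Tnfrsf9 had no settled sign: its second probe gave 0.15 ± 0.12 (SE). Among T cell markers 12 of 13 were lower, with a median difference of -0.27. Their summed signal was 16.3 to 22.8 in wild-type and 13.4 to 20.5 in knockout mice. Of the 13, 1 was lower at an unadjusted p under 0.05 (7.69%, against 13.4% of all genes) and 0 passed the threshold (limma). The brightest 2, Lck and Cd4, differed by -0.28 ± 0.17 and -0.27 ± 0.13 (SE). Of 5 regulatory T cell markers, 2 were lower and 3 higher, with a median difference of 0.21. At an unadjusted p under 0.05, 1 was lower and 1 higher (together 40%, against 23.5% of all genes), with 0 past the threshold (limma). The brightest of these, Il2ra and Icos, differed by 0.48 ± 0.11 and 0.21 ± 0.20 (SE). The part of either kind of T cell in the receptor values was not tested.

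Tnfrsf12a encodes Fn14, the receptor of TWEAK that injured epithelium and fibroblasts make. Its level was 5.21, 5.57, 5.59 and 5.87 in wild-type mice and 5.32, 5.45, 5.43 and 5.32 in knockout mice. The 4 knockout values were close together inside the wider wild-type range, and the difference was -0.18 ± 0.13 (SE; limma, adjusted p = 0.441). Tnfrsf11a (RANK) differed by 0.38 ± 0.23 and Tnfrsf19 (TROY) by 0.07 ± 0.34 (SE), and the sign of Tnfrsf19 turned with array weights, to -0.08.

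The 4 decoy receptors had the largest median difference of any receptor group, -0.87, and all 4 had the lower mean in the knockout. The neighbours Tnfrsf26, Tnfrsf22 and Tnfrsf23 set this size, while Tnfrsf11b differed by -0.24 ± 0.33 (SE). Tnfrsf26, Tnfrsf22 and Tnfrsf23 are rodent decoys for TRAIL or receptors without a known signal, and their probes lie side by side on mm9 between chr7:150793990-150794049 and chr7:150865851-150865910. Tnfrsf26 was at 0.23, 0.46, -0.77 and -0.47 in wild-type mice and at -1.44, -0.45, -1.48 and -1.56 in knockout mice. Knockout mouse 2 lay inside the wild-type range, about 1 log2 unit above the other 3 knockout mice, which were below every wild-type mouse. The difference was -1.09 ± 0.34 (SE), 2.14-fold lower (limma, adjusted p = 0.119).

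Tnfrsf22 differed by -0.89 ± 0.41 (adjusted p = 0.233) and Tnfrsf23 by -0.86 ± 0.40 (SE; limma, adjusted p = 0.239). Their second probes gave -0.59 ± 0.23 and -0.91 ± 0.45 (SE), and without knockout mouse 3 the first probes gave -0.57 and -0.51. The genes are close relatives. Their 60-base probes matched each other at no more than 23 bases between genes at any ungapped alignment. The probes of Tnfrsf22 matched each other at 26 bases and those of Tnfrsf23 at 21, so a low match does not separate the genes. Whether a probe also reads a relative's transcript was not tested. Tnfrsf11b, osteoprotegerin, the soluble decoy for RANKL, differed by -0.24 ± 0.33 (SE), which ran from -0.41 to -0.01 with 1 mouse left out.

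The scatter of the family within groups was wider than that of most genes. The median pooled within-group SD was 0.321 over the 35 members, from 0.0638 for Ltbr to 0.996 for Tnfsf18 with its dim values, against 0.193 over all genes tested. Part of this scatter followed single mice. In the wild-type group, mouse 2 was the highest sample for 15 of 35 members (42.9%; 24.0% of all genes), and in the knockout group mouse 2 was the highest for 18 (51.4%; 21.8% of all genes). For 12 members (34.3%, against 10.6% of all genes) both held at once: Tnf, Tnfsf14, Tnfsf8, Tnfsf9, Tnfrsf1b, Tnfrsf9, Tnfrsf13b, Tnfrsf14, Tnfrsf18, Tnfrsf22, Tnfrsf23 and Tnfrsf26. In 7 of these 12 knockout mouse 3 was also the lowest knockout sample (5.97% of all genes did so). The numbers 2 do not mark a known pair of mice. This pattern of mice was picked after the values were seen, so its shares describe it and were not tested.

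**Figure D3:**
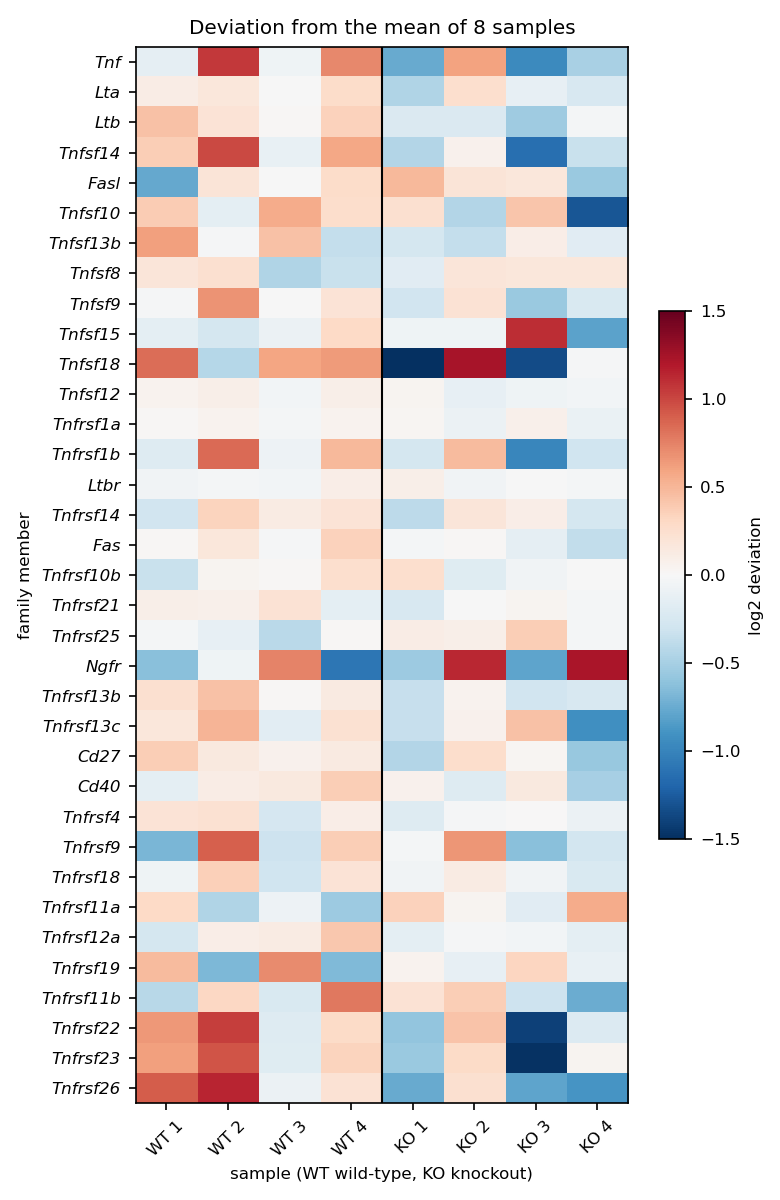
Deviation of each of the 35 members from its own mean over the 8 mice, in log2 units from blue (lower) to red (higher), with members in rows by role and mice in columns (WT wild-type, KO knockout); the colour scale ends at 1.5 either way. Columns WT 2 and WT 4 are mostly red, KO 2 is redder than the other knockout columns in the rows of Tnf, Tnfsf14, Tnfrsf1b, Tnfrsf9 and the decoy receptors, and KO 3 is the bluest knockout column in the rows of Tnf, Tnfsf14, Tnfrsf1b, Tnfrsf9, Tnfrsf22 and Tnfrsf23.

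Knockout mouse 2 therefore weighed on the counts. Without it, 11 members had groups that were apart, all lower in the knockout (Cd27, Fas, Lta, Ltb, Tnf, Tnfrsf13b, Tnfrsf1b, Tnfrsf22, Tnfrsf26, Tnfsf14 and Tnfsf9), and 13 had an unadjusted p under 0.05, all lower. With the same mouse left out, 23.2% of all genes were apart and 23.7% had an unadjusted p under 0.05, counting both directions. The share of all genes lower alone is not given for this setting. Knockout mouse 2 was the highest knockout sample for 18 of 35 members, so leaving it out lowers the knockout mean of those members by construction. Without wild-type mouse 3, 6 members were apart and 8 were at an unadjusted p under 0.05, all lower, against 19% and 19.3% of all genes. Without wild-type mouse 1, wild-type mouse 4 or knockout mouse 4, 2 members were apart in each case, all lower but Tnfrsf25 in the last, against 23.3%, 21.6% and 17.8% of all genes. Without knockout mouse 1, knockout mouse 3 or wild-type mouse 2, only Ltb was apart, against 19.2%, 21.5% and 18.7% of all genes. No member passed the adjusted threshold with any 1 mouse left out (limma). The number of genes called over the whole array was itself unsteady, at 1 without knockout mouse 1, knockout mouse 2 or wild-type mouse 2, 2 without wild-type mouse 1, 4 without wild-type mouse 3, 10 without knockout mouse 4, 22 without wild-type mouse 4 and 24 without knockout mouse 3.

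Markers of heart muscle, a tissue that can be taken along with the lung, also differed between mice. The mean log2 level of 10 heart muscle markers was -0.48, 4.29, 1.12 and 1.15 in wild-type mice and 2.53, 4.62, 1.37 and 4.57 in knockout mice, so that it was high in wild-type mouse 2 and in knockout mice 2 and 4. The 2 brightest, Myh6 and Actc1, differed by 2.0 ± 1.07 and 1.26 ± 0.77 (SE), and all 10 passed the background filter. Whether that tissue moved the family's values was not tested.

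Monocyte and interstitial macrophage markers, from the cells that make much of the TNF in an inflamed lung, all had the lower mean in the knockout, 14 of 14, with a median of -0.70. None passed the adjusted threshold (limma). At an unadjusted p under 0.05, 11 were lower (78.6%, against 13.4% of all genes), and 9 were apart and lower (64.3%, against 9.21% of all genes). Their summed signal was 724 to 851 in wild-type and 595 to 678 in knockout mice, without overlap. The brightest, Ly6c1 and Cd14, differed by -0.0046 ± 0.11 and -0.39 ± 0.32 (SE). Ly6c1 had a mean level of 8.44 in both groups and so weighed most in the sums. Whether its signal came from monocytes was not tested. Alveolar macrophage markers were mixed, with 6 of 9 tested lower and 3 higher and a median of -0.49. Their sums overlapped, at 223 to 346 in wild-type and 186 to 282 in knockout mice. The brightest of them, Chi3l3 and Marco, differed by -0.56 ± 0.18 and -0.25 ± 0.22 (SE). Dendritic cell markers were lower for 4 of 7, with a median of -0.10, and Siglech and Ccr7 were at 0.14 ± 0.07 and 0.31 ± 0.15 (SE). Neutrophil markers, from cells that also carry Tnfsf14 and TNF receptors, were split, 6 lower and 6 higher, with a median difference of 0.01. Differences ran from -1.10 for Cxcr2 to 1.11 for Ltf. At an unadjusted p under 0.05, 2 of the 12 were lower and 0 higher (limma), and 2 (16.7%) were apart and lower. The neutrophil sums were 922 to 1034 in wild-type and 959 to 1077 in knockout mice. Their brightest, S100a9 and S100a8, differed by 0.11 ± 0.07 and -0.04 ± 0.09 (SE). The part of any of these cell types in the values of Tnf, Tnfrsf1b or Tnfsf14 was not tested.

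Markers of other cells also differed in mean between the groups, and only 2 of those listed here, both platelet genes, passed the test. Platelet markers were lower for 8 of 8 genes, all apart, where 9.21% of all genes were apart and lower. Their median was -1.18, with sums of 36.1 to 66.3 in wild-type and 23.8 to 31.99 in knockout mice. Of the 8, Gp1ba and Ly6g6f passed the test (limma, adjusted p = 0.0456 and 0.0315), as did 0.0613% of all genes. The brightest, Pf4 and Ppbp, differed by -0.57 ± 0.18 and -1.19 ± 0.25 (SE). Natural killer cell markers, from cells that carry Fasl and Tnfsf10, were lower for 8 of 8 genes, with a median of -0.46, overlapping sums of 16.3 to 27.2 and 11.1 to 20.04, and Gzma at -0.28 ± 0.24 and Prf1 at -0.35 ± 0.16 (SE). Ciliated cell markers were higher for all 4 of 7 that were tested, with a median of 0.59, sums of 9.33 to 12.5 and 13.8 to 22.5, and Tekt1 at 0.60 ± 0.20 and Foxj1 at 0.59 ± 0.13 (SE). Club cell markers were higher for 6 of 6, with sums of 847 to 1090.5 and 1202 to 1729. Their mean log2 levels overlapped, with knockout mouse 3 at 5.83 and wild-type mouse 3 at 6.63. Alveolar type 1 markers were lower for 8 of 8, with overlapping sums of 247 to 333 and 176 to 328. The brightest club markers Scgb1a1 and Cbr2 differed by 0.17 ± 0.07 and 0.69 ± 0.12, and the brightest type 1 markers Hopx and Pdpn by -0.16 ± 0.20 and -0.41 ± 0.22 (SE). The part of any of these cells in the family's values was not tested.

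The genes that carry the signal from these receptors were read from 5 lists. In the reported fit the count past an adjusted p of 0.05 was 0 in every list (limma), and in other settings Casp8 and Tnfaip8l2, described below, passed. The 26 adaptors, ligases and kinases next to the receptors had the lower mean in the knockout in 18 cases, with a median of -0.15, and an unadjusted p under 0.05 was found for 9 lower genes and 1 higher one, the lower ones being 34.6% of the list against 13.4% of all genes. Groups were apart for 7 (26.9%, against 15.3% of all genes), 6 lower and 1 higher. The higher one was the IKK-alpha gene Chuk at 0.15 ± 0.07 (SE), named after its values were seen.

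The smallest p-values in that list were for Casp8, the caspase that death domain receptors activate, at -0.47 ± 0.09 (SE; limma, adjusted p = 0.0628). It was followed by Ikbkb at -0.31 ± 0.09 and Ikbkg at -0.26 ± 0.08, subunits of the kinase that frees NF-kappaB, and Ripk1, the kinase at TNFR1, at -0.30 ± 0.10 (SE). Casp8 passed the threshold under 3 other settings, with an intensity trend (adjusted p = 0.0479), with normexp (0.0445) and with no background filter (0.0466). Casp8 had a level of 2.49 ± 0.12 in wild-type and 2.02 ± 0.11 in knockout mice (SD, n = 4), without overlap. The within-group SDs of these 4 genes were 0.0776 to 0.127, against 0.589 and 0.697 for Tnf.

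Brakes on receptor signalling were mixed: 7 of 10 tested were lower, with a median of -0.14. Of the 10, 2 had an unadjusted p under 0.05 (20%, against 23.5% of all genes), 1 lower and 1 higher. The first was Tnfaip8l2 (TIPE2), which restrains innate immune cells, at -0.66 ± 0.12 (SE; limma, adjusted p = 0.0625), and the second Cyld, the deubiquitinase, at 0.35 ± 0.13 (SE). Tnfaip8l2 passed the threshold under the same 3 settings as Casp8, with the same adjusted p-values, and Cyld was at 0.20 with the mean of its probes. Nfkbie, an inhibitor of NF-kappaB, differed by -0.30 ± 0.16 (-0.17 without wild-type mouse 2) and the A20 partner Tnip1 by -0.20 ± 0.14 (SE).

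Shedding of the ligands and receptors is done by ADAM proteases, and none of the 7 genes listed had an unadjusted p under 0.05. Rhbdf1 differed by 0.25 ± 0.16 (0.13 without knockout mouse 3), Adam17, the TNF converting enzyme, by -0.15 ± 0.18, Rhbdf2 by -0.09 ± 0.13 and Adam10 by -0.05 ± 0.08 (SE). The median was -0.05, with 5 of 7 lower, and 3 of 7 lower with quantile normalization.

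Genes that control the stability and translation of Tnf mRNA were lower in 7 of 11 cases, with a median of -0.13. Of the 11, 4 had an unadjusted p under 0.05 (36.4%, against 23.5% of all genes), 3 lower and 1 higher. The RNA-binding protein gene Elavl1 differed by -0.28 ± 0.09, Zfp36l2 by -0.27 ± 0.10 and the p38 substrate kinase Mapkapk2 by -0.47 ± 0.19, and Rc3h1 (roquin) by 0.23 ± 0.08 (SE; limma, adjusted p from 0.126 to 0.201 over the 4). With the mean of a gene's probes, Rc3h1 was at 0.022 and Elavl1 at -0.10.

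Of 20 genes that TNF is known to induce, 19 were tested and 14 were lower, with a median of -0.24, as for the family. At an unadjusted p under 0.05, 5 were lower (26.3%, against 13.4% of all genes) and 0 higher, and none had groups that were apart. The endothelial adhesion molecule Sele differed by -1.14 ± 0.34, the NF-kappaB subunit Nfkb2 by -0.33 ± 0.12, the macrophage growth factor Csf1 by -0.46 ± 0.18 and the neutrophil chemokine Cxcl2 by -0.89 ± 0.36 (SE; limma, adjusted p from 0.112 to 0.183), with Cxcl2 at -0.58 without wild-type mouse 2. The fifth was the monocyte chemokine Ccl2 at -0.81 ± 0.34 (SE), named after its values were seen. LPS induces these genes by other routes too, so the list is not a readout of TNF alone.

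**Figure D4:**
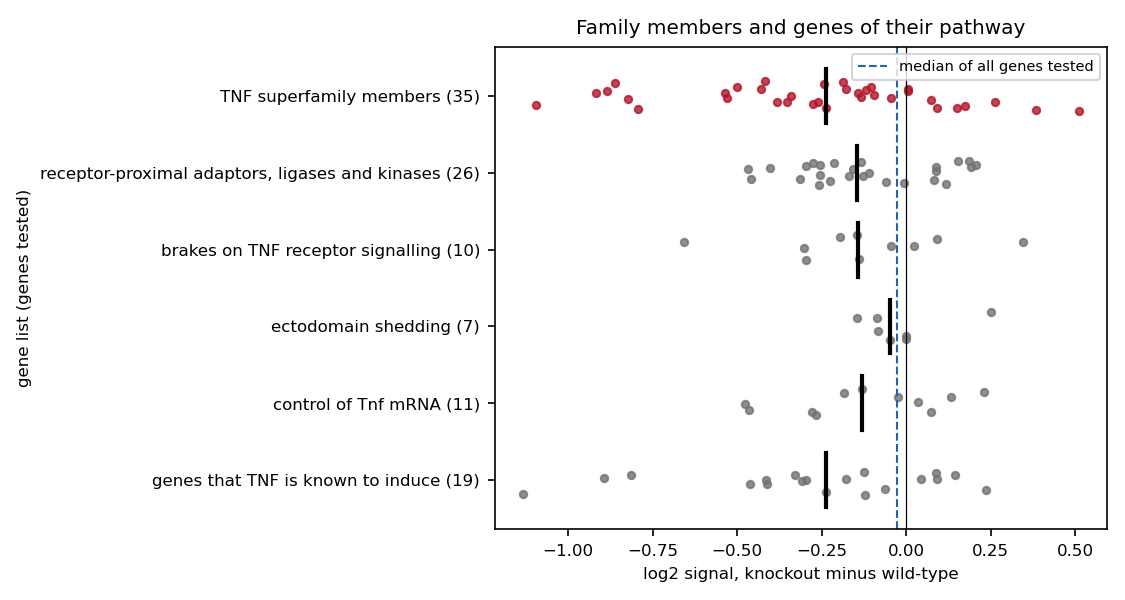
Differences in log2 signal, knockout minus wild-type, for the 35 members tested and for 5 lists of pathway genes, 1 point per gene with the black bar at the list's median; the number tested is in parentheses and the dashed line is the median over all 24464 genes. The medians run from -0.24 for the family and the induced genes to -0.05 for the shedding genes, beside -0.03 over all genes.

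Family genes that do not carry the Tnfsf or Tnfrsf names were listed apart from the members. Of 5, 2 were tested. Relt, a receptor of the family, differed by -0.43 ± 0.09 (SE; limma, adjusted p = 0.0683), with a level of 1.31 ± 0.11 in wild-type and 0.88 ± 0.12 in knockout mice (SD, n = 4) and groups that were apart. Relt passed the threshold with normexp (adjusted p = 0.047) and with no background filter (0.0466). Eda, the ligand ectodysplasin, differed by 0.11 ± 0.13 (SE).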

How the data were processed

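Per the labels, total RNA from whole lung of 8 mice was labelled with Cy3 and hybridised to Agilent arrays, 1 per mouse, with 4 mice per genotype by the series' design text. The authors deposited scanner files with a processed signal intensity per spot, written by Agilent Feature Extraction 10.7.1.1 per the submitters' processing notes, with probe positions on mm9 per the file headers. The deposited value table holds log2 values of the same arrays, with a median of 5.63 and one common distribution on every array. They correlate with the log2 scanner signals at r above 0.99, and no source used here names the method behind them.

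Control spots and the 154 to 245 outlier spots per array were left out, and 0 spots were saturated. Log2 intensity was set relative to the array's 75th percentile and spots of a probe were averaged. Of 55681 probes, 21 lacked a value on some array and were not tested. Probes well above background on at least 3 of 4 arrays of a group were kept, with the brightest per gene name, leaving 24464 genes. These were fitted with limma 3.58.1 in R 4.3.3 (lmFit, eBayes, Benjamini-Hochberg over all genes), a script tested on simulated data. The number of arrays limits the precision.

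Members, roles and gene lists were chosen with earlier results of these data known, so no list was tested as a set. Of the members, 12 fixed ones and every other member with an unadjusted p under 0.05 or groups apart are shown sample by sample. In each pathway list the 4 smallest p-values are named. Of each marker list given with values, the 2 brightest genes are named, and platelet genes past the threshold. Promoters came from RefSeq's GRCm38.p6 table, matched by symbol, and no coordinates were converted. Alternatives were other background corrections, scalings, filters, probe rules, variance models, thresholds, a replicate block and leaving out each mouse.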

Additional observations from a re-analysis of the deposited data

Results flagged for a closer look

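In 3 of 70 groups of 4 samples, 1 sample lay far from the other 3 by Dixon's gap test, where chance gives about 1 in 20. For Ltbr, wild-type mouse 4 was at 3.96 and the other wild-type mice at 3.82 to 3.84, a gap that is small in size. For Tnfrsf26, knockout mouse 2 was at -0.45 and the others at -1.56 to -1.44, so the wide knockout spread of this decoy receptor rests on 1 mouse. For Tnfsf8, knockout mouse 1 was at -3.71 and the others at -3.37 to -3.36, near the dim end of the probes that passed the filter.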

How the results depend on the processing

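Over up to 18 settings, 27 of the 35 members kept the direction of their difference throughout and 8 did not. The count of members lower in the knockout was between 25 and 28 of the 34 or 35 tested, and 29 of 41 with no filter. The cause of the shifts below was not tested.

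Genes called over the array, 15 in the reported fit, numbered 302 with array weights, 417 with an intensity trend, 6 with the mean of probes, 512 with normexp, 126 with the filter on all 8 arrays, 3522 of 36153 with no filter, 1817 at an adjusted p of 0.1 and 5761 at an unadjusted p of 0.05, and 1 to 24 with 1 mouse left out. Members called, 0 in the reported fit, numbered 2 with no filter (Cd40lg and Tnfsf4, below background on all 8 arrays), 1 at an adjusted p of 0.1 and 4 at an unadjusted p of 0.05. Members apart, 1 in the reported fit (15.3% of all genes apart), numbered 2 with the mean of probes (15.2%), with median centring (15.3%) and with normexp (15.9%). They numbered 3 of 41 with no filter (19.8%), and 1 to 11 with 1 mouse left out (17.8% to 23.3% of all genes). Members at an unadjusted p under 0.05, 4 in the reported fit (23.5% of all genes), numbered 4 to 13 with 1 mouse left out (18.4% to 23.7% of all genes). Shedding genes that were lower, 5 in the reported fit, numbered 3 with quantile normalization and with the deposited value table, and 3 to 5 with 1 mouse left out.

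Mice with the same number did not all deviate together (r of 0.13, 0.47, 0.01 and -0.29 for numbers 1 to 4), and only the mice numbered 2 correlated best with each other, so the numbers were not taken to pair the mice. With a replicate block, 43 genes and 1 member (Tnfsf14, adjusted p = 0.0446) were called and 9 members had an unadjusted p under 0.05, against 25.1% of all genes (23.5% without the block). A slide block was not run, with all arrays on 1 slide.

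Of the 10 genes whose sign turned in some setting, Tnfsf18 has mostly knockout values below background and the others had differences within 0.15 of 0. With array weights Tnfrsf19 was -0.079, Tnfrsf9 0.0068 and Tnfsf15 -0.0017. Tnfrsf9 was 0.011 with the mean of probes and 0.15 on its other probe. Tnfrsf1a was 0.014 and Adam10 0.0089 in the deposited value table, and 0.014 and 0.0083 with quantile normalization. Ltbr was -0.049 and Tnfrsf10b -0.0498 with median centring, and with normexp Ltbr was -0.0086 and Tnfsf18 0.0087. With 1 mouse left out, Ltbr ran from -0.022 to 0.0399, Tnfrsf10b from -0.10 to 0.092, Tnfrsf19 from -0.14 to 0.32, Tnfrsf9 from -0.38 to 0.14, Tnfsf15 from -0.26 to 0.37, Fasl from -0.082 to 0.36 and Adam17 from -0.23 to 0.023. Dim probes limit Tnfsf18, the second Tnfrsf13c probe and the 6 members that were not tested.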
